A study of Mus musculus with 4 samples.

Results

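The extracellular modulators of bone morphogenetic proteins (BMPs) measured here are 9 genes, Chrd, Chrdl1, Chrdl2, Bmper, Nog, Grem1, Fst, Fstl1 and Twsg1. They were found by gene name among the non-control spots of 4 Agilent two-colour mouse arrays. The names matched 12 of 55681 probes, and 10 of these, covering 8 of the 9 genes, were bright enough to be fitted among 19864 genes. The arrays compared odontoblasts, which deposit dentin, with osteoblasts, which deposit bone. Both RNAs of an array came from donor-matched 2-week-old mice whose transgene drove enhanced green fluorescent protein from the 2.3 kb collagen type I promoter. The odontoblast RNA came from dental pulp of C57BL/6 mice and was labelled with Cy5. The osteoblast RNA came from calvarial bone, with no strain named for that channel, and was labelled with Cy3. Cells were released by enzyme digestion and sorted by fluorescence, so the sort held any cell in which the transgenic promoter was active. The number of animals per array is not stated, and the p-values therefore reflect only how far 4 arrays differ, which may be technical.

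BMPs are secreted growth factors that signal through pairs of serine/threonine kinase receptors to Smad proteins, and they take part in both tooth and bone formation. The modulators act outside the cell. Chordin (Chrd), the chordin-like proteins (Chrdl1, Chrdl2), noggin (Nog) and gremlin 1 (Grem1) bind BMPs and keep them from their receptors, while follistatin (Fst) binds activins most tightly. Bmper and twisted gastrulation (Twsg1) can hinder or help signalling depending on context, and tolloid proteases free BMPs by cutting chordin.

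Every ratio below is log2 of Cy5 over Cy3, and values above 0 stand for a brighter odontoblast-labelled channel. The odontoblast markers and some of the osteoblast markers ran against those labels. The dentin gene Dspp had a mean ratio of -1.95 ± 0.32 (SE, n = 4; limma adjusted p = 0.0602), whereas Ifitm5, a membrane protein of mineralising osteoblasts, had a ratio of 5.05 ± 0.45 (limma adjusted p = 0.0167). Dmp1 and Nes, the other odontoblast markers read, also lay below 0 on all 4 arrays, at means of -1.71 and -2.00. None of the 3 odontoblast markers was called (limma adjusted p = 0.111 for Dmp1 and 0.0690 for Nes). Of 6 osteoblast markers 2 were called, Ifitm5 and Col1a2. Ibsp and Col1a1 lay above 0 on all 4 arrays and were not called (limma adjusted p = 0.157 and 0.0521). Bglap (mean 1.34, limma adjusted p = 0.392) and Sp7 (mean 0.02, limma adjusted p = 0.989) took both signs over the arrays. No array had swapped dyes, so dye and cell type share 1 ratio, and channels are named by dye below. The arrays shared a slide and a scan. Median spot brightness exceeded median local background by a factor of 7.09 to 8.17 in Cy5 and 10.8 to 15.6 in Cy3. Ratios correlated between arrays at a Pearson r of 0.30 to 0.49 across kept probes, which are not independent replicates.

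The probes that carry the results are oligonucleotides of 60 bases, and the last 30 bases of each, toward its 3′ end, follow as the scanner files give them. The 3 probes of Chrdl1 and the 2 of Chrd are shown because these genes have several probes, and Bmper and Fst because they had the next largest ratios. Capitals mark the hexamer AATAAA, the common polyadenylation signal, searched on the probe strand alone.
Chrdl1 (chrX:139732534-139732593, mm9, minus strand, transcript NM_031258): taggcaggagcatattctaggaatgatatg
Chrdl1 (chrX:139725644-139725703, mm9, minus strand, transcript NM_001114385): tccatcatttcaagctagttactcggacca
Chrdl1 (chrX:139720248-139720307, mm9, minus strand, transcript NM_001114385): tttatgtagtcactgtgtttctggaatttt
Bmper (chr9:23289301-23289360, mm9, plus strand, transcript NM_028472): tcatggtgtataaaatgaaagccttcggct
Fst (chr13:115243565-115243624, mm9, minus strand, transcript NM_008046): ggcaaaacgaaacacaacaaAATAAAtaat
Chrd (chr16:20739049-20739221, mm9, plus strand, transcript NM_009893): cgcagtagagacctccccagcctaccaaat
Chrd (chr16:20738166-20738225, mm9, plus strand, transcript ENSMUST00000151150): atacacataAATAAAatgatataaaaaccc
The first Chrd probe covers 173 bases of genome with 60 bases, so its sequence crosses a gap that the spliced transcript lacks. The other 6 each map to 1 unbroken run. The hexamer lies in 2 of the 12 probes of the 9 genes and in 10.1% of all probes. Whether a probe lies in coding or untranslated sequence was not analysed here.

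Of the 8 modulators fitted, 2 were called at a limma adjusted p under 0.05, and both were higher in Cy5. Across all genes 2.12% were called, 1.26% higher in Cy5 and 0.861% higher in Cy3. Of all calls 59.5% were higher in Cy5, and 82.9% with each array centred on its median in place of loess, which moved the median gene from 0.01 to 0.20. Chrdl1 and Bmper were 17.7-fold and 14.4-fold higher in the channel labelled odontoblast, and Chrd, Nog, Grem1, Fst, Fstl1 and Twsg1 did not pass the test. The median ratio of the 8 genes was 0.32, against 0.01 over all genes. The mean ratio was above 0 for 6 of the 8. With median centring it was above 0 for all 8, but Fstl1 (0.014) and Twsg1 (0.16) then lay below the median gene at 0.20. Chrdl1, Bmper and Fst had 1 sign on all 4 arrays, as had 31.4% of all genes. In bulk RNA, fewer cells of a type and less RNA per cell cannot be told apart.

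**Figure D1:**
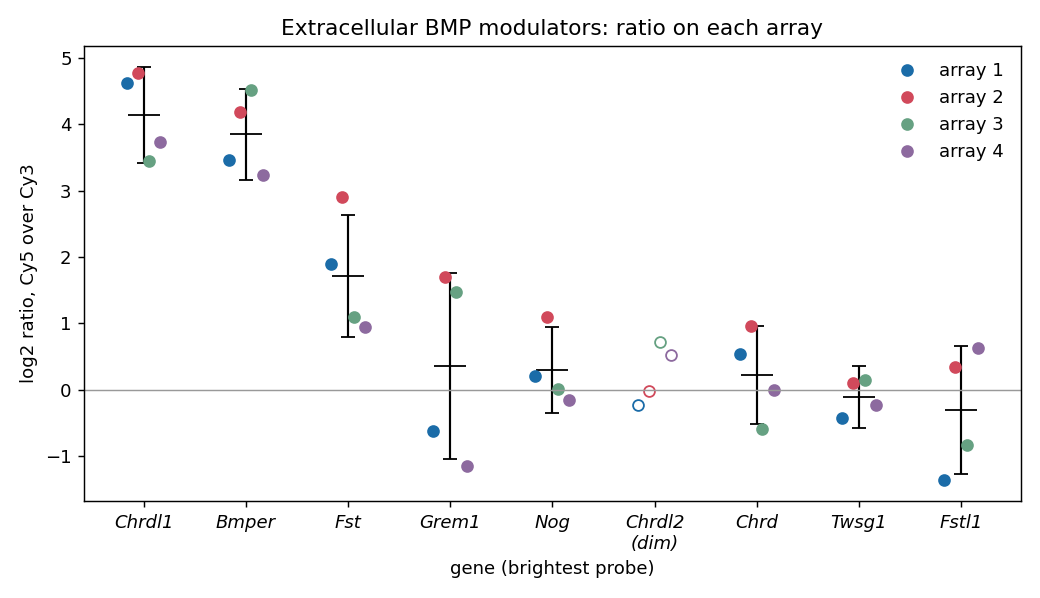
Log2 ratio of Cy5 over Cy3 (vertical axis) for each modulator by its brightest probe, with 1 point per array; bars are the mean and the 95% interval from limma, and open points are the dim Chrdl2 probe, which was not fitted. All 4 points of Chrdl1, Bmper and Fst lie above 0, while those of Grem1 lie on both sides, from -1.14 to 1.71.

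Chrdl1 encodes a secreted BMP antagonist built, as chordin is, of von Willebrand factor type C domains. At its brightest probe the normalised signal in Cy5 was 8247, 9852, 9287 and 11623 on arrays 1 to 4, in arbitrary units. In Cy3 it was 336, 361, 851 and 874. The channels did not overlap, and Cy3 was higher on arrays 3 and 4 than on arrays 1 and 2. The ratios were therefore 4.62, 4.77, 3.45 and 3.73, with a mean of 4.14 (95% interval 3.42 to 4.86, n = 4; limma adjusted p = 0.00974). Ranked by ratio, Chrdl1 stood at place 36 of 19864 genes. The call was not kept in every fit without 1 array. Without array 3 the limma adjusted p was 0.0321, but without array 1, 2 or 4 it was 0.0591, 0.0604 and 0.0693, at ratios of 3.93 to 4.28. In each of these 3 fits no modulator was called, and all genes called fell to 0 without array 1 or 2 and to 31 without array 4.

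Chrdl1 has 3 probes, and 1 of them was bright enough in Cy5 and Cy3 on each array. The probe just described is assigned in the files to transcript variant 2 and starts at its base 3297. A probe that starts at base 1671 of transcript variant 1 had ratios of 1.93, 0.80, 1.32 and 2.25, with a mean of 1.58 ± 0.29 (SE; limma adjusted p = 0.0759 with each probe fitted on its own, where 1.62% of probes were called). It was well above background in Cy5 on all arrays but in Cy3 on arrays 2 and 4 alone. On those arrays its ratios were 0.80 and 2.25, against 4.77 and 3.73 at the brightest probe. Whether the dim channel lowered its ratio was not tested. With the scanner software's own ratio it stood at 2.76 ± 0.36 (limma adjusted p = 0.0485), against 4.37 for the brightest probe. The third probe, which starts at base 3969 of variant 1, was not well above background in either channel on any array and was not fitted. Because Cy3 was dim at 1 of the fitted probes, no mean size is given for the difference between them. With the mean of its probes in place of the brightest, Chrdl1 had a ratio of 2.86 (limma adjusted p = 0.0100).

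**Figure D2:**
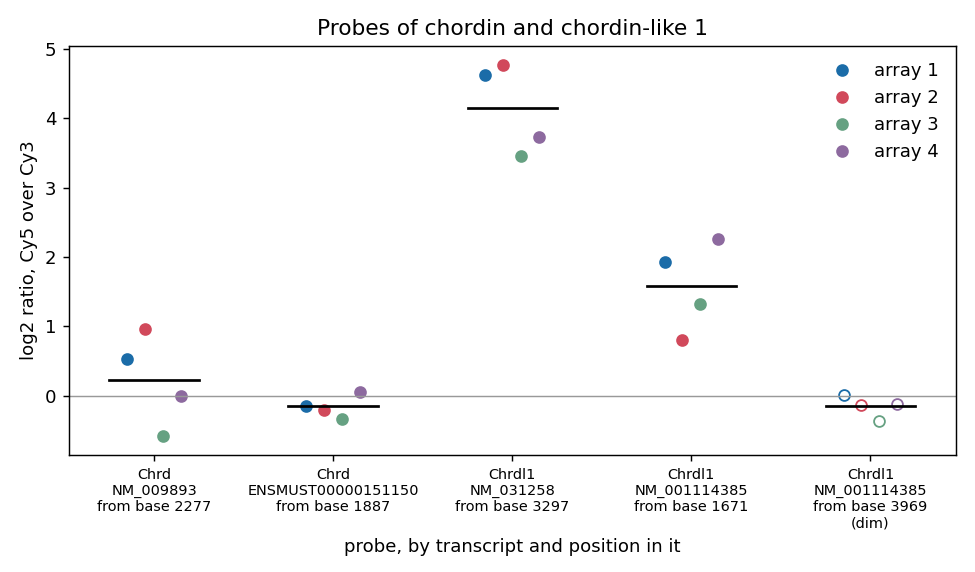
Log2 ratio of Cy5 over Cy3 (vertical axis) on each array for the probes of Chrd and Chrdl1, placed by transcript and by the base at which the probe starts; lines are means and open points a probe not above background. The fitted Chrdl1 probes have means of 4.14 and 1.58, the latter with Cy3 well above background on 2 arrays. Those of Chrd lie at 0.23 and -0.15.

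Bmper encodes a secreted BMP-binding protein related to crossveinless 2 of flies. Its probe had normalised signals of 4056, 3808, 5389 and 3511 in Cy5 and of 370, 209, 237 and 372 in Cy3. The channels did not overlap here either, and both were well above background on all 4 arrays. The ratios were 3.45, 4.19, 4.51 and 3.24, with a mean of 3.85 (95% interval 3.17 to 4.53, n = 4; limma adjusted p = 0.0101). Array 3, where the Chrdl1 ratio was lowest, gave the highest Bmper ratio. The call was lost without array 1, 2 or 4, at adjusted p-values of 0.0568, 0.0637 and 0.0608, and was kept without array 3 (adjusted p = 0.0326). Chrdl1 and Bmper are 2 of the 8 fitted modulators whose Cy5 and Cy3 signals did not overlap, which was so for 14.4% of all genes. Their ratios differed from each other by 0.30 ± 0.95 (SD, n = 4; exact permutation p = 0.5), from -1.06 to 1.17 on single arrays. The 250 bases before the RefSeq start of Bmper (chr9:23222826-23223075, GRCm38.p6, plus strand) are shown for the gene that was called and has an entry in the promoter table, with the GC box GGGCGG, searched on both strands, in capitals.
Bmper: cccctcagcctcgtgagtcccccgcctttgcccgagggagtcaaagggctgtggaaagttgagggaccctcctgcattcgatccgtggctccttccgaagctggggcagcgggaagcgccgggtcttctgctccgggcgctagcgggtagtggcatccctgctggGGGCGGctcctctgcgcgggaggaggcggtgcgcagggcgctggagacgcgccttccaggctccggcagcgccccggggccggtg
That window holds the GC box at 1 place. The windows of Chrd, Grem1, Fstl1 and Twsg1, which were not called, hold it at 4, 3, 2 and 2 places, and 32.7% of 32851 promoter windows hold it. The palindrome GGCGCC lies in the windows of Chrd and Grem1 and in 9.6% of all windows, and TATAAA, in 12.4% of all windows on either strand, lies in none of the 5.

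Fst, which encodes follistatin, had the next largest ratio and was not called. Its signals were 1831, 2096, 3417 and 1000 in Cy5 and 495, 282, 1596 and 518 in Cy3. Cy5 was the higher channel on every array, but the ranges of the channels overlapped, because both signals were highest on array 3. The ratios were 1.89, 2.90, 1.10 and 0.95, with a mean of 1.71 (95% interval 0.79 to 2.63, n = 4; limma adjusted p = 0.106), or 3.27-fold. With median centring Fst had a ratio of 1.91 and passed the test (adjusted p = 0.0421).

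**Figure D3:**
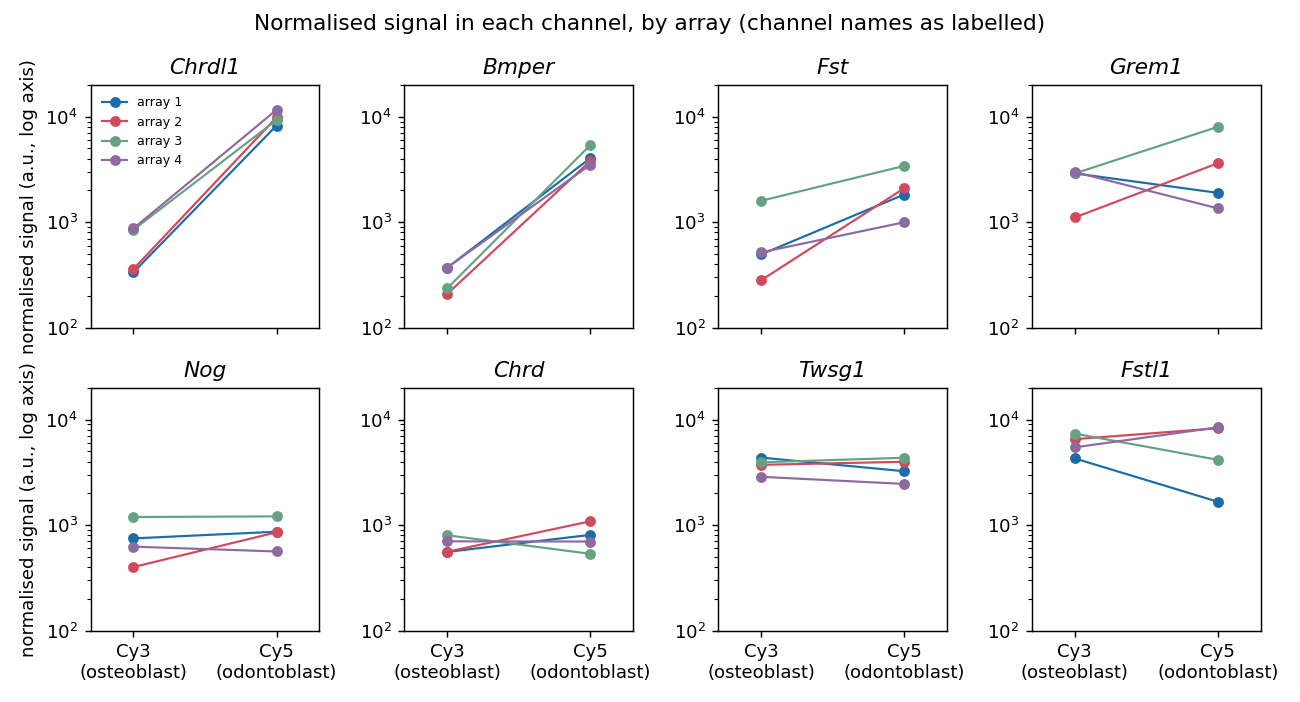
Normalised signal in arbitrary units (vertical axis, log scale) in the Cy3 and Cy5 channels for the 8 fitted modulators, with 1 line per array. For Chrdl1 and Bmper every line rises steeply toward Cy5, while the lines of Grem1 and Fstl1 cross.

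Grem1 and Fstl1 differed between arrays more than the other modulators did. Grem1, a BMP antagonist of limb and bone development, had Cy5 signals of 1898, 3624, 8019 and 1353, a range of 5.93-fold. Its Cy3 signals were 2904, 1111, 2902 and 2992, so array 2 alone was low. The ratios were -0.61, 1.71, 1.47 and -1.14, with a mean of 0.35 (95% interval -1.05 to 1.75; limma adjusted p = 0.763). Arrays 2 and 3 lay toward Cy5 and arrays 1 and 4 toward Cy3. Only 7.55% of genes had a larger SD over the arrays than Grem1, whose SD was 1.44, against a median of 0.54 over all genes. Fstl1, a glycoprotein with a follistatin-like domain, split the arrays in another way. Its ratios were -1.36, 0.34, -0.83 and 0.63, with a mean of -0.30 (95% interval -1.27 to 0.66; limma adjusted p = 0.701), or 0.014 with median centring. The Cy5 signal was 1663, 8267, 4151 and 8433, whereas Cy3 stayed between 4280 and 7358. The interval of either gene includes differences of more than 2-fold.

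Noggin and chordin, the classic antagonists of BMP signalling, had mean ratios near 0. Nog had ratios of 0.21, 1.09, 0.02 and -0.15, with a mean of 0.29 (95% interval -0.35 to 0.94; limma adjusted p = 0.574). Its Cy3 signal ranged from 400 on array 2 to 1192 on array 3, and Cy5 from 562 to 1209. Chrd, by its brighter probe, had ratios of 0.54, 0.96, -0.58 and -0.01, with a mean of 0.23 (95% interval -0.51 to 0.96; limma adjusted p = 0.708). The other Chrd probe had ratios from -0.33 to 0.06 (limma adjusted p = 0.665 among probes), and the 2 probes differed by 0.38 ± 0.66 (SD, n = 4; exact permutation p = 0.5). Chordin and its relative Chrdl1 thus had different ratios at their brightest probes. The difference, Chrdl1 minus Chrd at these probes, lay between 3.74 and 4.08 on the 4 arrays (exact permutation p = 0.125, the smallest p that 4 arrays allow). At the other fitted Chrdl1 probe the ratio on array 2 was 0.80, below the 0.96 of Chrd. On arrays 1, 3 and 4 that probe lay above Chrd. Twsg1, which forms complexes with chordin and BMPs, had the smallest spread. Its ratios were -0.43, 0.10, 0.14 and -0.22, with a mean of -0.10 (95% interval -0.57 to 0.36; limma adjusted p = 0.796), or 0.16 with median centring, and 81.6% of genes had a larger SD. With loess its interval lies within 2-fold in either direction, as do those of Nog and Chrd. Median centring moved Nog to 0.50 ± 0.26 and Chrd to 0.44 ± 0.28 (SE). At those standard errors their intervals reach beyond 2-fold toward Cy5, so the statement on Nog and Chrd does not extend to that setting.

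Chrdl2, the remaining chordin-like gene, had 1 probe (chr7:107183146-107183205, mm9, plus strand). It was well above background in Cy5 on 1 array and in Cy3 on none. Its ratios of -0.22, -0.02, 0.72 and 0.52 come from signals of 56.8 to 142 in Cy5 and 57.5 to 85.9 in Cy3. The lowest signals among probes well above background were 68.3 to 94.4 in Cy5 and 86.3 to 105 in Cy3. No difference in Chrdl2 was detectable at this signal.

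Other genes of the BMP pathway were read from a list of 80 names, of which 65 were fitted. Of these, 1 was called higher in Cy5 and 2 in Cy3, against 1.26% and 0.861% of all genes. The median ratio was -0.32, against 0.01 over all genes. The 3 calls fell among the 21 ligands. Bmp7, a ligand with roles in tooth and kidney development, was lower in Cy5 at a ratio of -4.57 ± 0.17 (SE; limma adjusted p = 0.00544). Its values of -4.32, -4.74, -4.48 and -4.74 differed little between arrays. Bmp2, an inducer of bone formation, had a ratio of -2.82 ± 0.22 (limma adjusted p = 0.0121), 7.04-fold higher in Cy3. Gdf10 was called higher in Cy5 (limma adjusted p = 0.0111), at ratios of 2.84, 3.48, 2.70 and 2.62. Its Cy3 signal was on no array well above background. Its mean difference was therefore put at about 6.99-fold, without allowance for the spread between arrays. That estimate sets the mean Cy5 signal against the higher, per array, of 2 Cy3 signals. They are the dim signal and the lowest signal of a probe well above background. A dim spot can lie above that lowest signal, so the estimate is not a strict lower bound, and it is open to dye bias. The calls of Bmp2 and Gdf10 were lost without array 1, 2 or 4 (adjusted p from 0.0604 to 0.0721), and that of Bmp7 without array 1 or 2 (adjusted p of 0.0512 and 0.0549). Gdf10 was not fitted where both channels had to lie above background.

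Beyond the ligands no gene of the list was called. The 13 receptors and co-receptors had a median of 0.24, and the brightest, the type I receptor Acvr1, had a ratio of -0.55 (limma adjusted p = 0.216), or 0.22 with median centring. The 6 Smads and Smad-degrading enzymes had a median of -0.50, with Smurf2, a ubiquitin ligase, at -0.83 (adjusted p = 0.161), or -0.14 with median centring. The 9 target genes had the lowest median of the groups, -1.07. The brightest of them, Dlx5, had a ratio of 0.27 (adjusted p = 0.774), while Id1 and Msx2, named after their values were seen, had ratios of -1.19 (adjusted p = 0.0546) and -1.60 (adjusted p = 0.0613). Id1 passed with scale normalization between arrays, with both channels required above background on all arrays and with median centring, and Msx2 with median centring alone. The 14 other extracellular antagonists and binders had a median of -0.46. The brightest, the secreted protease Htra3, stood at -0.69 (adjusted p = 0.270), or -0.20 with median centring. The 2 tolloid proteases fitted, which cut chordin, had a median of 0.53. Bmp1 had a ratio of -0.56 (adjusted p = 0.241), or 0.19 with median centring, and Tll1, which was singled out with its value known, stood at 1.62 (adjusted p = 0.121), above 0 on all 4 arrays.

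**Figure D4:**
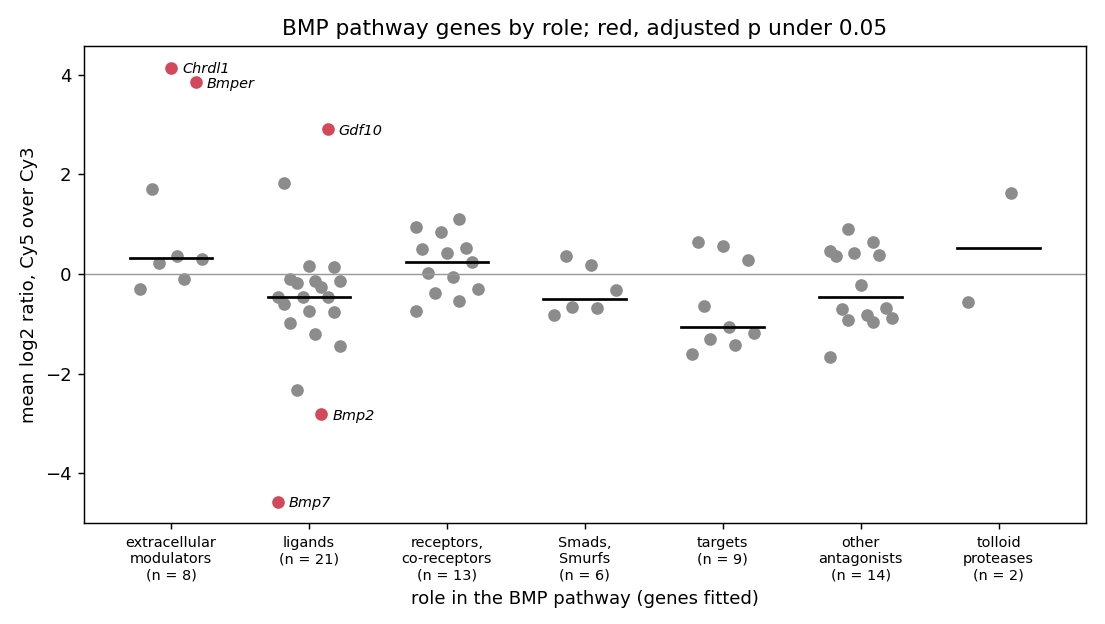
Mean log2 ratio of Cy5 over Cy3 (vertical axis) of each fitted BMP pathway gene, grouped by role, with a black line at each group's median and calls at a limma adjusted p under 0.05 in red. The called modulators Chrdl1 and Bmper lie above 0, as Gdf10 does, while Bmp2 and Bmp7 lie below.

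Several markers of other connective tissue were called in the same channel as Chrdl1 and Bmper, and others were not. Across all genes 1.26% were called higher in Cy5 and 0.861% higher in Cy3. Of 7 fibroblast and periosteum markers 4 were called, all higher in Cy5, among them Dpt at 4.46, Tnmd at 5.55 and Aspn at 4.89. Postn (-1.62, adjusted p = 0.0956) and Pdgfra (-1.05, adjusted p = 0.125), named after their values were seen, had ratios below 0 on all 4 arrays and were not called, though Postn passed with scale normalization between arrays (adjusted p = 0.0476). The summed signal of the 7 markers was 109000 to 171000 in Cy5 and 53000 to 181000 in Cy3, and these ranges overlapped. Of 5 cartilage markers, Comp (6.92) and Col2a1 were called higher in Cy5, and Acan (2.30, adjusted p = 0.152) was among those not called. The Cy3 signal of Col2a1 was well above background on 1 of 4 arrays. The summed signal of the 5 markers was 41800 to 200000 in Cy5 and 2890 to 4240 in Cy3. Of 6 osteoblast markers, Ifitm5 and Col1a2 (2.79) were called higher in Cy5, at a summed signal of 371000 to 571000 against 55400 to 156000. Of 6 macrophage and leukocyte markers 2 were called higher in Cy5, at a summed signal of 36700 to 109000 against 24900 to 31100. Of 5 markers of dental epithelium, Ambn (-3.05) and Odam (adjusted p = 0.00615) were called higher in Cy3. Cy3 was also the channel of the Bmp2 and Bmp7 calls. Krt14 (-0.10, adjusted p = 0.769), Amelx (0.26, adjusted p = 0.509) and Perp (-1.65, adjusted p = 0.219) were not called. The summed signal of the 5 markers was 4950 to 9960 in Cy3 and 1510 to 1740 in Cy5. Of 3 osteocyte markers 1 was called, Ptprz1, higher in Cy5 (3.22, adjusted p = 0.0485). Mepe (0.42, adjusted p = 0.648) and Phex (0.38, adjusted p = 0.613) were not called. Of the endothelial, pericyte, nerve and erythroid markers none was called (4, 5, 5 and 2 fitted). Col2a1 lost its call with scale normalization (limma adjusted p = 0.0532) and with no filter on dim probes (limma adjusted p = 0.0753). It also lost it without any 1 array (limma adjusted p from 0.0787 to 0.185), and was not fitted where both channels had to lie above background. Without array 1 or 2 no marker was called. The part of these cell types in the modulators' ratios was not tested.

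**Figure D5:**
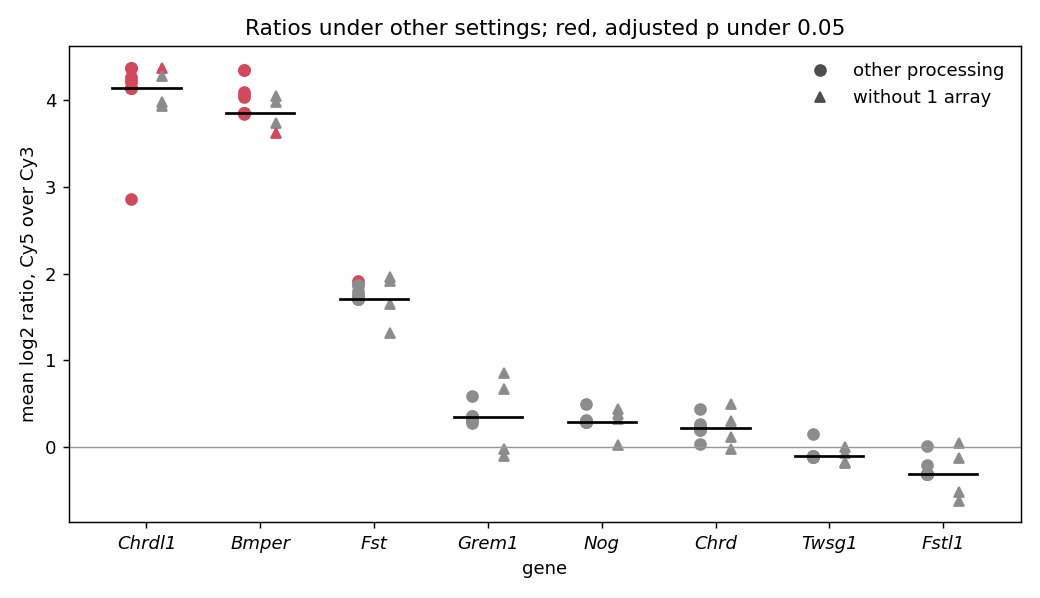
Mean log2 ratio of Cy5 over Cy3 (vertical axis) of each fitted modulator under other processing settings (circles) and without 1 array (triangles), red where the limma adjusted p was under 0.05; lines are the values reported above. The lowest values of Chrdl1 and Bmper are 2.86 and 3.63, with the call lost in 3 of the 4 fits without an array, and Fst passes at 1 circle.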

How the data were processed

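Expression was measured on 4 arrays, each with 1 RNA labelled odontoblast (Cy5) and 1 labelled osteoblast (Cy3). Per the file headers, Agilent Feature Extraction 10.7.3.1 wrote the deposited scanner files, which hold unnormalized intensity values, flags of 0 or 1, and the software's log10 ratio of processed signals. The deposited value table holds that log10 ratio, within 0.0001 on each array, with a column median of 0. From the intensities, background was corrected with normexp (offset 50), and arrays were normalized by loess in limma 3.58.1 (R 4.3.3), with the 3671 control spots at weight 0. Outlier-flagged values (949) were set to missing, and no spot was saturated. A probe was kept if 1 channel lay well above background on 3 or more arrays (44239 probes). A gene is its brightest kept probe, and 37356 features were fitted, unnamed probes included. Symbols came from RefSeq (GRCm38.p6): 27235 probes matched by accession, 3581 had a current symbol, 2381 kept the file's name and 22484 had none. Mean ratios were tested against 0 in a two-sided test (lmFit, eBayes), and p-values, adjusted over all features by Benjamini-Hochberg, were called under 0.05. Signals are normalised by loess and Aquantile. The test was tried on simulated data. The sequences shown are from the scanner files and RefSeq, whose promoter table matched 5 of the 9 genes. Single values were compared by exact sign-flip permutation.

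The members, lists and tests were chosen with earlier results of these data known. All members are named, with called pathway genes, the brightest gene of each pathway role without a call, and the first 3 markers of a cell type or counts. Further markers were named after their values were seen. Alternatives were another background correction, normalization, dim-probe filter, probe summary, variance model and source of values, and leaving out each array.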

Additional observations from a re-analysis of the deposited data

Results flagged for a closer look

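The Cy3 signal of Grem1 stood apart on 1 array. On array 2 it was 1111, against 2902 to 2992 on the other arrays, and on the log2 scale the gap to the nearest array was 0.969 of the whole range, above the 95% critical value of Dixon's test for 4 values. The spot carried no outlier flag. Of 39 sets of 4 values tested, 1 passed, and chance alone flags about 1 in 20. Without array 2 the mean ratio of Grem1 was -0.097 in place of 0.35.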

How the results depend on the processing

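Chrdl1 and Bmper kept their direction and their call under every processing alternative run with 4 arrays (adjusted p 0.00692 to 0.0215 and 0.00786 to 0.0240). Across all genes 422 were called. The scanner software's log ratio and the deposited value table each gave 267 (161 higher in Cy5, 106 in Cy3). Median centring gave 1421 (1178 higher in Cy5), with 4 modulator probes and 7 pathway genes called. Leaving out each array in turn gave 0 to 178 genes (0 to 101 higher in Cy5, 0 to 77 in Cy3), 0 to 2 modulators, 0 to 2 modulator probes and 0 to 4 pathway genes. Where limma called 0 genes, 3191 (without array 1) and 3418 (without array 2) had an unadjusted p under 0.05, against 4213 with all arrays; no other tool was run. Signs turned for some genes that were not called. With median centring they were Fstl1 (0.014), Twsg1 (0.16), Acvr1 (0.22) and Bmp1 (0.19). Without array 1 they were Fstl1 (0.049) and Twsg1 (0.0055), without array 2 Chrd (-0.018) and Grem1 (-0.097), and without array 3 Grem1 (-0.018) and Dlx5 (-0.28). Over the fits without 1 array these genes ranged from -0.018 to 0.50 (Chrd), -0.097 to 0.85 (Grem1), -0.62 to 0.049 (Fstl1), -0.19 to 0.0055 (Twsg1) and -0.28 to 0.59 (Dlx5). The cause was not tested. Signal over background limits Chrdl2 and the third Chrdl1 probe. The test is already paired, because each ratio is the difference within an array, and there is 1 group of arrays.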
